A study of Mus musculus with 42 samples.

Results

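Macrophages of aged C57BL/6 mice taken at zeitgeber time 20 (ZT20) were compared with macrophages of aged mice taken at ZT8. Zeitgeber time counts the hours of the light cycle from lights on, and the labels do not give the light schedule. The comparison sets 3 libraries at ZT20 against 3 at ZT8. These are 6 of the 42 libraries of the series, chosen by the age and time in their labels. The mice of these groups were 18 to 20 months old. The series also holds aged macrophages at ZT0, ZT4, ZT12, ZT16 and ZT24, and macrophages of young mice, 2 to 3 months old, at the same 7 times, with 3 libraries in each group. No treatment or genetic change is given for any group. The labels call the cells macrophages without naming the tissue they came from, and nothing in them ties the libraries of a group to separate animals. The p-values therefore cover the spread among these libraries, and that spread may be technical.

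The circadian clock of mammalian cells is a loop of transcription factors. ARNTL (BMAL1) and CLOCK bind E-boxes and switch on the Per and Cry genes, whose proteins inhibit them, and also Nr1d1 and Nr1d2, which encode REV-ERB alpha and beta. The REV-ERB proteins repress Arntl through sites that the ROR activators also read, and the PAR bZIP factors DBP and TEF carry the rhythm to further genes through D-boxes. In macrophages the loop is known to gate chemokines, the inflammasome sensor Nlrp3 and other parts of the innate response.

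The libraries were made by 3' end sequencing, so that values are set by transcript ends and not by the length of a gene. They held 7412578 to 9900778 reads in genes at ZT20 and 7897021 to 15587030 at ZT8, with 14902 to 16988 and 15515 to 16582 genes above 0. All 14 macrophage lineage markers were above 0 in each of the 6 libraries, among them Lyz2, Csf1r and Adgre1, and took 2.70% to 3.66% of the normalized reads at ZT20 and 2.34% to 3.03% at ZT8. The 20 markers of resident peritoneal macrophages, Gata6 among them, were likewise above 0 in all 6. The 11 B cell markers summed to 0.235% to 0.358% at ZT20 and 0.300% to 0.504% at ZT8, where the high value was that of replicate 2. That library also had the highest sum of the 13 markers of monocyte-derived macrophages, 0.841%, against 0.348% to 0.429% in the other 5. The 7 mast cell markers summed to 0.0160% to 0.0198% at ZT20 and 0.00778% to 0.0132% at ZT8, which did not overlap. The 10 neutrophil markers summed to 0.00359% to 0.00452% at ZT20 and 0.00424% to 0.00851% at ZT8, with Ngp, Ltf and Ly6g at 0 in all 6 libraries and S100a9 at 103 in replicate 1 of ZT8 against 5.46 to 18.4 elsewhere.

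Few transcripts passed the threshold for a call between the times, and most of those called belong to the clock. Limma-trend was fitted on log2(value + 1), where the value is the deposited normalized read count, and calls were made at an adjusted p under 0.05 (Benjamini-Hochberg). It called 7 of 12016 genes (0.0583%). Arntl and Nlrp3 were higher at ZT20 (2 genes, 0.0166%), and Nr1d1, Nr1d2, Dbp, Tef and Snord13 were lower (5 genes, 0.0416%). The unadjusted p was under 0.05 for 705 genes (5.87%), 429 higher (3.57%) and 276 lower (2.3%). The 3 libraries of ZT20 all lay above the 3 of ZT8 for 578 genes (4.81%) and all below for 597 (4.97%). Without replicate 3 of ZT20 the count of calls was 2, without replicate 2 of ZT8 it was 3, and without replicate 1 or replicate 2 of ZT20 it was 4. The genes with an unadjusted p under 0.05 were 238 higher and 178 lower without replicate 3 of ZT20, 262 and 176 without replicate 1 of ZT8, and 646 and 289 without replicate 3 of ZT8.

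**Figure D1:**
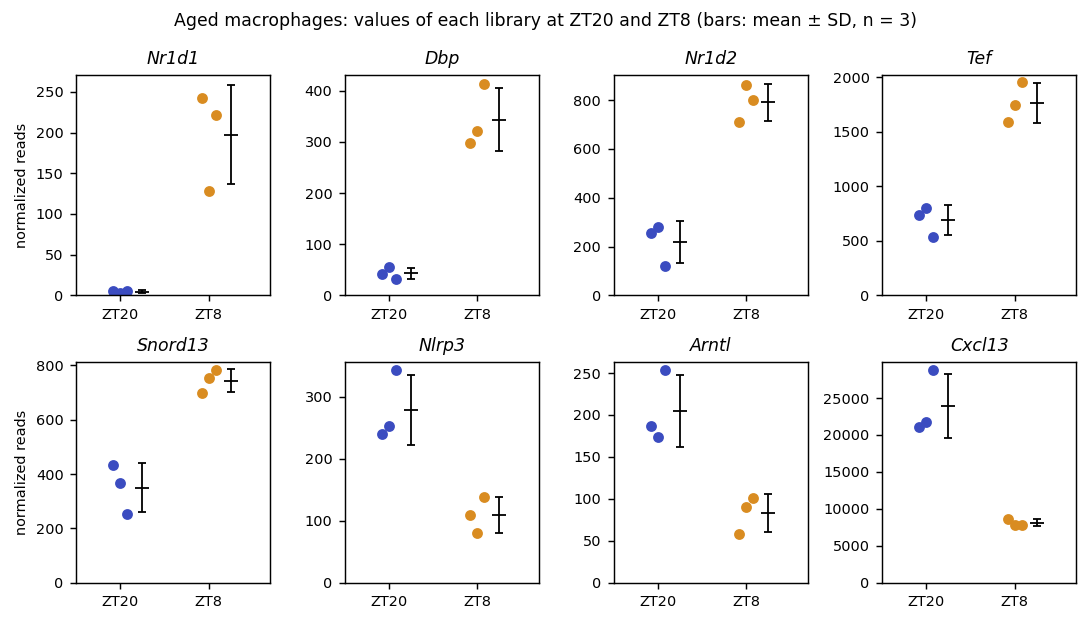
Normalized reads of the 7 called genes and of Cxcl13 in each aged library, at ZT20 (blue, left) and at ZT8 (orange, right), on linear axes from 0; black bars give the mean ± SD of 3 libraries. In all 8 genes the libraries of ZT20 and ZT8 do not overlap, with Nr1d1 at 2.44 to 5.60 at ZT20 and 128 to 242 at ZT8.

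Nr1d1, the gene of REV-ERB alpha (chr11:98767932-98775333, minus strand, GRCm38), had the widest difference of the called genes. It stood at 5.60, 2.44 and 5.46 normalized reads at ZT20, against 242, 128 and 222 at ZT8. Every library of ZT20 was far below every library of ZT8, and the log2 fold of ZT20 over ZT8 was -5.18 ± 0.76 (SE, limma adjusted p = 0.00387). The values at ZT20 rest on 6, 3 and 5 reads, so the size of this fold depends on few reads, while its direction rests on 447, 146 and 217 reads at ZT8. Nr1d1 overlaps Thra, a thyroid hormone receptor gene on the opposite strand, by 1075 bases at its 3' end, and how the authors' counting used strand is not given in the sources used here. Thra stood at 203, 214 and 284 at ZT20, against 300, 349 and 350 at ZT8, a log2 fold of -0.52 ± 0.20 (SE, limma adjusted p = 0.805), which was not called.

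Nr1d2, which encodes REV-ERB beta (chr14:18204054-18239127, minus strand), was at 258, 279 and 122 at ZT20, against 712, 863 and 799 at ZT8. The groups did not overlap, replicate 3 of ZT20 was the lowest, and the log2 fold was -1.93 ± 0.29 (SE, limma adjusted p = 0.00392). Without that replicate the log2 fold was -1.55 and the adjusted p was 0.0592, so the call was lost. The call of Nr1d2 held without any other of the 6 libraries, with limma adjusted p-values of at most 0.0436. Nr1d1 stayed under the threshold with each of the 6 libraries left out in turn, with a limma adjusted p of at most 0.0314.

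The PAR bZIP output factors moved the same way. Tef (chr15:81802421-81826863, plus strand) was at 737, 798 and 534 at ZT20, against 1588, 1743 and 1953 at ZT8. Its log2 fold of -1.37 ± 0.18 (SE, limma adjusted p = 0.0019) had the lowest p of all genes, and it stayed called with any 1 of the 6 libraries left out. Dbp (chr7:45705088-45710203, plus strand) was at 41.1, 55.4 and 32.8 at ZT20, against 298, 320 and 413 at ZT8. All ZT20 libraries lay below all ZT8 libraries, with a log2 fold of -2.98 ± 0.49 (SE, limma adjusted p = 0.00927). Dbp overlaps Sphk2 on the opposite strand by 737 bases at its 3' end. Sphk2 had a log2 fold of -0.25 ± 0.14 (SE, limma adjusted p = 0.859). The call of Dbp was lost without replicate 1 of ZT20 (adjusted p = 0.0623), replicate 3 of ZT20 (0.128), replicate 2 of ZT8 (0.0545) or replicate 3 of ZT8 (0.0536), at log2 folds between -3.03 and -2.81. Nfil3, a bZIP repressor that competes with these factors for D-boxes, was at 225, 191 and 286 at ZT20, against 227, 66.6 and 96.0 at ZT8. Its groups overlapped by way of replicate 1 of ZT8, and the log2 fold of 1.02 ± 0.30 (SE, limma adjusted p = 0.673) was not called. Without that library it was called, at a log2 fold of 1.52 (limma adjusted p = 0.0158).

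Arntl, the activator of the loop and a target of REV-ERB repression (chr7:113207465-113314126, plus strand), ran opposite to Nr1d1. It was at 187, 174 and 254 at ZT20, against 58.0, 90.2 and 101 at ZT8. Every ZT20 library was above every ZT8 library, and the log2 fold was 1.31 ± 0.25 (SE, limma adjusted p = 0.039). Clock, its partner, had a log2 fold of 0.12 ± 0.15 (SE, limma adjusted p = 0.965) with overlapping groups. The call of Arntl held without replicate 3 of ZT8 (adjusted p = 0.0343). It was lost without any other of the 6 libraries, with limma adjusted p-values between 0.0974 (without replicate 2 of ZT20) and 0.555 (without replicate 3 of ZT20) and log2 folds between 1.07 and 1.42.

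Of the 20 genes in the 4 clock lists (activators, repressors, ROR receptors and PAR bZIP factors), 16 had a mean of at least 10 and were tested, and the rest were under that level. Among the 16, 1 was called higher and 4 lower. By groups that did not overlap, 2 were higher and 7 lower, where all genes tested gave 4.81% and 4.97%.

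The Period and Cryptochrome genes, which encode the inhibitors of CLOCK and ARNTL, were not called by limma across the aged libraries. Per3 was at 113, 112 and 149 at ZT20, against 277, 347 and 393 at ZT8, a log2 fold of -1.44 ± 0.29 (SE, limma adjusted p = 0.0668) with no overlap. Per3 was called in 4 of 21 other settings, DESeq2 among them (adjusted p = 0.00113). It shares its span with Camta1 on the same strand. Per1 was at 163, 190 and 184 at ZT20, against 433, 486 and 435 at ZT8, also without overlap, a log2 fold of -1.33 ± 0.34 (SE, limma adjusted p = 0.473). A limma fit of the ZT20 and ZT8 libraries alone called it (adjusted p = 0.0138). That fit did not call Arntl (limma adjusted p = 0.307), Nlrp3 (0.122) or Snord13 (0.105). Per2 was at 156, 197 and 294 at ZT20, against 185, 180 and 206 at ZT8. Its groups overlapped, and its log2 fold of 0.13 ± 0.28 (SE, limma adjusted p = 0.984) changed sign without replicate 3 of ZT20.

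Cry1 was at 138, 136 and 148 at ZT20, against 120, 84.9 and 62.3 at ZT8, which did not overlap, at a log2 fold of 0.70 ± 0.27 (SE, limma adjusted p = 0.822). Cry2 had a log2 fold of -0.29 with overlapping groups. Ciart, a repressor of CLOCK and ARNTL, was at 3.74, 10.6 and 0 at ZT20, against 31.5, 30.6 and 32.7 at ZT8. These values rest on 4, 13 and 0 reads at ZT20, and the fit gave a log2 fold of -3.10 ± 0.95 (SE, limma adjusted p = 0.734). Bhlhe40, Bhlhe41 and Rora had log2 folds of 0.02, 0.17 and -0.04, all with overlapping groups, whose signs changed under some of the settings tried.

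The promoters of 4 genes are shown, each with a match to letters that were searched. Arntl is shown for the letters AGGTCA of the ROR site, the site family of the REV-ERB repressors, Nr1d2 for the same letters, Tef for its E-box CACGTG, and Hsph1, a chaperone gene described further on, for an E-box and a heat shock element of the form GAANNTTC. Sequences are the RefSeq promoters on GRCm38.p6, 250 bases before to 50 after a start, written 5′ to 3′ in the direction of the gene, with these motifs in capitals.
Arntl, chr7:113207261-113207560, plus strand: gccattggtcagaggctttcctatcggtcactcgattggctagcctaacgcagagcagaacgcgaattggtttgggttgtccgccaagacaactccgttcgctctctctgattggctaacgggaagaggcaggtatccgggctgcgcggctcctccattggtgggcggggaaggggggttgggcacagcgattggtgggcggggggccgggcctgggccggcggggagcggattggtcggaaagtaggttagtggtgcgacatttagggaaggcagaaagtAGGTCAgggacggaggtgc
Nr1d2, chr14:18239057-18239356, minus strand: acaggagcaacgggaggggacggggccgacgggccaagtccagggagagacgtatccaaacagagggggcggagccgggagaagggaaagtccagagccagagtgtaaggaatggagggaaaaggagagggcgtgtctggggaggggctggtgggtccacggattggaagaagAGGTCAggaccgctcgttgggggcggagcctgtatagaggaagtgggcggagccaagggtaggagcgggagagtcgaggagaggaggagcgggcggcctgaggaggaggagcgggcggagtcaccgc
Tef, chr15:81802423-81802722, plus strand: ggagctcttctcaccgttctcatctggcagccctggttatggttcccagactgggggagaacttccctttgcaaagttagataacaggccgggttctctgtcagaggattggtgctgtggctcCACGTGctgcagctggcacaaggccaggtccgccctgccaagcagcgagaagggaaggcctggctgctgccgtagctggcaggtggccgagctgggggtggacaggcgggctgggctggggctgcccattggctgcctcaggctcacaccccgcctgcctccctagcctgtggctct
Hsph1, chr5:149636266-149636565, minus strand: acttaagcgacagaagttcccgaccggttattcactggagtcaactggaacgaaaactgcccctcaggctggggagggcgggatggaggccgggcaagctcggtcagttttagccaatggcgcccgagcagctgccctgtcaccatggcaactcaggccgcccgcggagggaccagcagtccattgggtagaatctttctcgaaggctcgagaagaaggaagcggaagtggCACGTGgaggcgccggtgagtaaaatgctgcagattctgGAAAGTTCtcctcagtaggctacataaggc
Both strands were searched. The E-box was in 7.15% of the 32851 RefSeq mouse promoters of this length, the ROR letters in 16.3%, the D-box (TTATGTAA or TTATGCAA) in 1.66% and the heat shock element in 7.86%. Counted by gene over the 8981 tested genes with a promoter in the table, the shares were 12.2%, 14.5%, 1.29% and 6.97%. Of the 14 tested clock genes with a promoter in the table, 5 held an E-box, 5 the ROR letters and 2 a D-box. The other Arntl window, chr7:113207215-113207514, and the windows of Nr1d1 and Dbp held none of the letters searched. This says only that the letters are not in these bases. A match is a description of the sequence.

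Nlrp3, the sensor of the inflammasome that drives release of interleukin-1 (chr11:59541568-59566956, plus strand), was the only called gene outside the clock lists that was higher at ZT20. It was at 240, 253 and 343 at ZT20, against 108, 80.6 and 138 at ZT8. The groups did not overlap, and the log2 fold was 1.36 ± 0.25 (SE, limma adjusted p = 0.0339). Without replicate 3 of ZT8 its adjusted p was 0.0178. The call was lost without any other of the 6 libraries, with limma adjusted p-values between 0.0688 (without replicate 1 of ZT20) and 0.475 (without replicate 3 of ZT20). Among the 17 tested genes of the inflammasome list it was the only one with an unadjusted p under 0.05, where 5.87% of all genes had one, so the list as a whole was near that share. The number was 2 without replicate 1 or 2 of ZT20 or replicate 3 of ZT8.

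Snord13, a small nucleolar RNA gene (chr8:31149864-31149967, minus strand), was at 432, 367 and 252 at ZT20, against 698, 752 and 782 at ZT8. The groups did not overlap, and the log2 fold was -1.12 ± 0.21 (SE, limma adjusted p = 0.039). Its call held without replicate 1 of ZT20 (adjusted p = 0.0365) and was lost without any other of the 6 libraries, with adjusted p-values between 0.111 and 0.573 (without replicate 3 of ZT20). Rnu11, a spliceosomal RNA gene, was at 119, 111 and 110 at ZT20, against 258, 261 and 242 at ZT8, a log2 fold of -1.16 ± 0.30 (SE, limma adjusted p = 0.476), and was not called.

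Cxcl13, a B cell chemokine and a marker of resident peritoneal macrophages (chr5:95956951-95961068, plus strand), was the most abundant of the genes near the threshold. It was at 21149, 21764 and 28842 at ZT20, against 8665, 7812 and 7833 at ZT8. The ZT20 libraries were all above the ZT8 libraries, whose values lay close together. The log2 fold was 1.55 ± 0.31 (SE, limma adjusted p = 0.0571), which missed the threshold, and 6 of 21 other settings called it.

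Klf9, a Krüppel-like factor gene that glucocorticoid is known to induce, was at 1375, 1428 and 1266 at ZT20, against 3504, 2573 and 2695 at ZT8. Its log2 fold was -1.10 ± 0.22 (SE, limma adjusted p = 0.0571), with no overlap. Dusp6, the phosphatase that turns off ERK, was at 2206, 2029 and 2961 at ZT20, against 1220, 1246 and 1555 at ZT8, a log2 fold of 0.83 ± 0.17 (SE, limma adjusted p = 0.0773). The groups of both genes stand apart, and limma called neither with all libraries. Klf9 was called in 6 of 21 other settings, DESeq2 among them (adjusted p = 0.00113), and Dusp6 by DESeq2 alone (adjusted p = 0.00284).

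Other genes of low p were further from the threshold. Higher at ZT20, without overlap, were the transcription factor genes Myc (245, 267 and 296 at ZT20, against 41.8, 154 and 185 at ZT8) and Cebpb (3585, 4330 and 4458 at ZT20, against 2225, 2287 and 2916 at ZT8). Lower at ZT20 was S100a6, a calcium-binding protein gene (14448, 17555 and 10493 at ZT20, against 23526, 20729 and 21693 at ZT8). The limma adjusted p of each of these genes was 0.476. Bax, a mediator of apoptosis, had a log2 fold of -0.76 and Cdkn2a, a cell cycle inhibitor gene, one of 0.93, at adjusted p-values of 0.609 and 0.74.

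The other times of day in aged macrophages gave values from libraries outside the ZT20 and ZT8 groups. Those libraries were part of the fit behind the calls, through its filter and its estimate of spread. Signs there are therefore not fully separate from the choice of the called genes. The mean of ZT16 and ZT24, 4 h to either side of ZT20, was set against the mean of ZT4 and ZT12. All 7 called genes had the same sign there, where 54.9% of all genes did. Limma called 3 genes in this contrast (0.025% of 12016). These were Nr1d1 (log2 fold -3.92 ± 0.54, SE, adjusted p = 0.00261), Dbp (-1.97 ± 0.34, adjusted p = 0.0328) and Hsph1 (0.89 ± 0.15, adjusted p = 0.0328). The count was 1 without replicate 1 or 2 of ZT16, replicate 3 of ZT24, replicate 2 or 3 of ZT4, or any replicate of ZT12, and 5 without replicate 2 of ZT24.

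By the means of the 7 times, Nr1d1 was highest at ZT8, 197, and was at 110 and 121 at ZT4 and ZT12, while it was between 4.50 and 12.2 at the times from ZT16 to ZT24 and at ZT0. Dbp was at 344 and 354 at ZT8 and ZT12 and at most 75.7 elsewhere. Tef was highest at ZT12, 2303, and lowest at ZT0, 347. Arntl and Nlrp3 were low at ZT8 and ZT12, with Arntl at 83.1 and 57.6 and Nlrp3 at 109 and 122, and both were above 200 at ZT20, ZT24 and ZT0. Per2 and Cry1 were highest at ZT12 (373) and ZT16 (161), so ZT8 and ZT20 lay on either flank of their highest level. Cxcl13 was lowest at ZT8, 8103, and highest at ZT20, 23918, but its flanking contrast was 0.05 ± 0.22 (SE, limma adjusted p = 0.992).

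**Figure D2:**
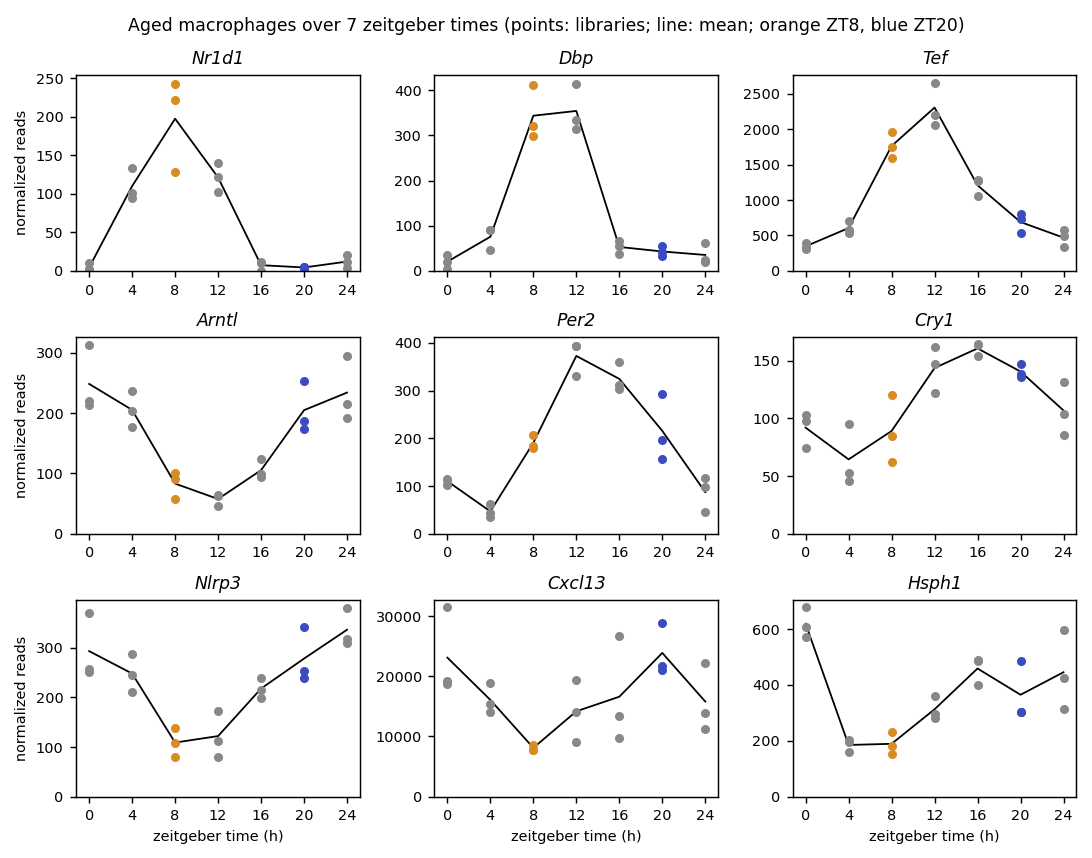
Normalized reads of 9 genes in the 21 aged libraries against zeitgeber time (h), with the line through the mean of 3 libraries, on linear axes from 0; ZT8 is orange and ZT20 blue. Nr1d1 and Dbp are high near ZT8 and low at ZT20, Arntl and Nlrp3 are low at ZT8 and ZT12, and Per2 is highest at ZT12, between the times compared.

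Genes of the heat shock list, the chaperones and their partners, mostly had positive log2 folds, below the threshold for calls. Of the 22 tested, limma and edgeR called 0 and DESeq2 called 1, Hsph1. At an unadjusted p under 0.05, 9 were higher and 0 lower, where all genes gave 3.57% and 2.3%. The log2 fold was above 0 in 19 of 22 (50.4% of all genes), with a median of 0.28 (0.00 over all genes). Without replicate 3 of ZT20 the 9 became 3, without replicate 2 of ZT8 they became 4, and the median stayed between 0.25 and 0.40 with any 1 library left out.

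Hsph1, an HSP70 exchange factor of the HSP110 family, was at 304, 303 and 486 at ZT20, against 232, 182 and 152 at ZT8, a log2 fold of 0.93 ± 0.22 (SE, limma adjusted p = 0.305). Its groups did not overlap. Hspa1b, an inducible HSP70, was at 89.7, 79.8 and 110 at ZT20, against 14.1, 50.8 and 36.8 at ZT8, a log2 fold of 1.60 ± 0.39 (SE, limma adjusted p = 0.346). Its reads may be split with the near-identical Hspa1a, so the value of either gene alone is uncertain. Chordc1, an HSP90-binding co-chaperone gene, and Cacybp had log2 folds of 0.50 and 0.43 without overlap. In the flanking libraries 20 of the 22 were above 0 (median 0.32). The mean of 17 of the 22 was highest at ZT0 and that of 12 was lowest at ZT4, with 7 lowest at ZT8, so ZT20 was not the time of highest level. Of the 18 members with a RefSeq promoter, 10 held the heat shock element, against 6.97% of all tested genes with one.

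In the list of ER folding genes, which encode chaperones of the secretory path, 21 of 26 tested genes had a log2 fold above 0. The median was 0.19, and 50.4% of all genes were above 0. The unadjusted p was under 0.05 for 4 higher, Hsp90b1, Dnajb9, Sdf2l1 and Pdia6, and 1 lower. All genes gave 3.57% and 2.3%, and the 1 lower is near that share. The median was 0.07 without replicate 2 of ZT8, and the count higher at that p was 1 without replicate 3 and 2 without replicate 1 of ZT20.

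**Figure D3:**
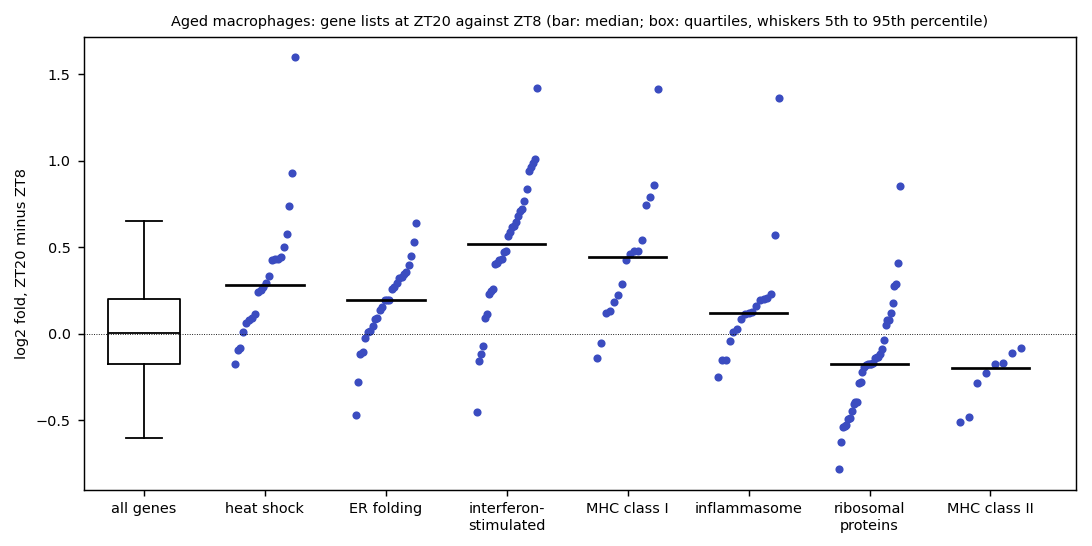
Log2 fold of ZT20 minus ZT8 in aged macrophages for the tested members of 7 gene lists (points, sorted within each list, black bar at the median) beside all 12016 genes (box). The medians are 0.28 for heat shock, 0.52 for interferon-stimulated, 0.44 for MHC class I, -0.18 for ribosomal protein and -0.20 for MHC class II genes, and 0.00 over all genes.

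Interferon-stimulated genes, the antiviral set that type I interferon switches on, had the largest median of the immune lists shown, 0.52 over 30 tested genes. Of the 30, 26 were above 0 (50.4% of all genes). None was called by limma, edgeR or DESeq2. At an unadjusted p under 0.05, 6 were higher and 0 lower, where all genes gave 3.57% and 2.3%. Without overlap 9 were higher (4.81% of all genes). Rtp4 was at 831, 821 and 716 at ZT20, against 477, 403 and 327 at ZT8, a log2 fold of 0.98 ± 0.27 (SE, limma adjusted p = 0.52). Oasl2, an OAS-like antiviral gene, had a log2 fold of 0.83.

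The flanking libraries had the other sign. There 1 of 30 was above 0, with a median of -0.23. In single libraries, the mean over the list, as a log2 deviation from the mean of the 21 aged libraries, was 0.15, -0.06 and -0.05 at ZT20, against -0.54, -0.48 and -0.42 at ZT8. At ZT12 it was -0.07, 0.32 and 0.91, and at ZT24 it was -0.36, -0.29 and -0.65. ZT20 was thus near the mean of the day and ZT8 below it, and the libraries of ZT12 and ZT16 differed widely among themselves. The lowest of the 7 means fell at ZT8 in 19 of 30 (63.3%, against 18.8% of all genes) and at ZT24 in 10.

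MHC class I genes, which present peptides from within the cell, had a median log2 fold of 0.44 with 14 of 16 above 0 (50.4% of all genes). At an unadjusted p under 0.05, 3 were higher and 0 lower, where all genes gave 3.57% and 2.3%. Without replicate 1 of ZT8 the median was 0.12 and the count higher was 0. That count was 1 without replicate 1 of ZT20, 8 without replicate 2 of ZT8 and 6 without replicate 3 of ZT8. Over all 12016 genes, 429 were higher with all libraries, 262 without replicate 1 of ZT8 and 363 without replicate 1 of ZT20. The number was 573 without replicate 2 of ZT8 and 646 without replicate 3 of ZT8. In replicate 1 of ZT8 the list stood at a mean log2 deviation of -1.01, against 0.03 and -0.05 in the other libraries of ZT8, and H2-T23 was at 22.2 against 356 and 233. The median was 0.23 with array weights. At the flanking times 5 of 16 were above 0, with a median of -0.18. Members of this family share sequence, so reads may be split between them.

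**Figure D4:**
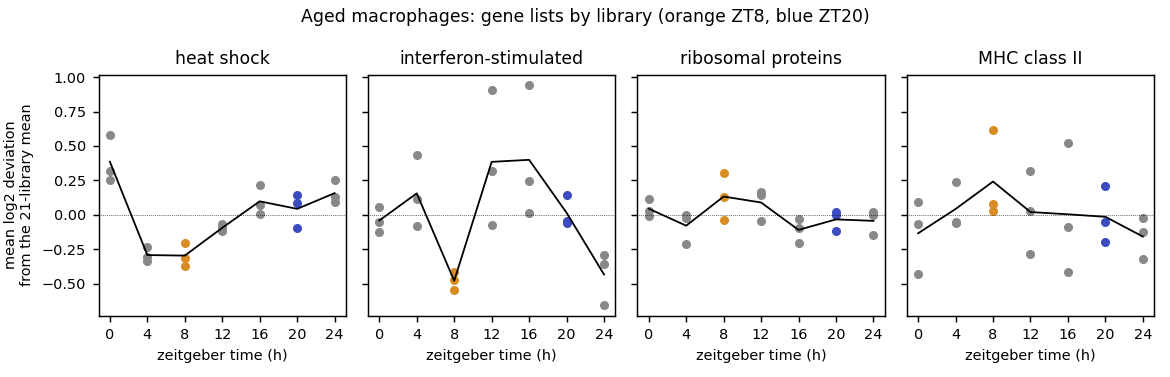
Mean log2 deviation of the tested members of 4 gene lists from their mean over the 21 aged libraries, for each library (points) against zeitgeber time (h), with a line through the mean of 3 libraries; ZT8 is orange and ZT20 blue. Heat shock genes are at -0.37 to -0.21 at ZT8 and -0.10 to 0.14 at ZT20, and the MHC class II list is high in 1 library of ZT8, at 0.62.

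MHC class II genes, which present engulfed antigen and which B cells also express, were below 0 in all 8 tested, with a median of -0.20 and none called. H2-Eb1 and Cd74 had an unadjusted p under 0.05, where 2.3% of all genes were lower at that p. Cd74, the invariant chain gene, was at 5290, 5080 and 4156 at ZT20, against 5874, 9646 and 5730 at ZT8, where replicate 2 of ZT8 was highest. That library also had the highest B cell sum. Without it the median was -0.03 and 3 of 8 were above 0, and 3 of 8 were above 0 without replicate 3 of ZT20. The median was -0.34 without replicate 1 of ZT20, -0.33 without replicate 1 of ZT8, and -0.325 without replicate 3 of ZT8. Without both libraries numbered 2 it was -0.02, with 4 of 8 above 0. In young macrophages 0 of 8 were above 0, with a median of -0.33 and 3 lower at an unadjusted p under 0.05. The part of the B cell RNA in the aged result was not tested gene by gene. With the mean log2 level of the B cell markers as a covariate the aged median was -0.17. In a bulk sample fewer cells of a type and less RNA per cell cannot be told apart.

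Ribosomal protein genes mostly had negative log2 folds. Of 35 tested, 9 had a log2 fold above 0 (50.4% of all genes), with a median of -0.18. At an unadjusted p under 0.05, 0 were higher and 10 lower, where all genes gave 3.57% and 2.3%. Without overlap 12 were lower (4.97% of all genes). None was called by limma, edgeR or DESeq2. Rpl13 was at 6360, 5294 and 5197 at ZT20, against 8322, 10154 and 7641 at ZT8, a log2 fold of -0.63 ± 0.20 (SE, limma adjusted p = 0.74). Rpl3, Rpl32 and Rplp1 had log2 folds of -0.53, -0.49 and -0.39. Without replicate 3 of ZT20 or without replicate 1 of ZT8 the 10 became 5, without replicate 2 of ZT8 they became 6, and without both libraries numbered 2 they became 2. These genes have many pseudogene copies, to which reads may be lost or added.

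Among 16 tested targets of the glucocorticoid receptor, 1 was higher and 4 were lower at an unadjusted p under 0.05, where all genes gave 3.57% and 2.3%, with a median of -0.32. The numbers were 3 higher and 3 lower without replicate 1 of ZT8, 0 and 3 without replicate 2 of ZT8, and 1 and 6 without replicate 3 of ZT8. Besides Klf9 and Per1, Cd163, the haemoglobin scavenger receptor, was at 43.9, 84.7 and 36.1 at ZT20, against 217, 308 and 69.5 at ZT8 (log2 fold -1.69 ± 0.60, SE, limma adjusted p = 0.783). Sgk1, a kinase gene, had the opposite sign, 0.57. The median was -0.16 without replicate 2 of ZT8, -0.21 without replicate 1 of ZT8 and -0.53 without replicate 3 of ZT8. It was -0.15 with array weights. Of the NF-kappa B and Toll-like receptor list, 1 of 24 was higher and 1 lower at that p, near the shares of all genes. The number higher was 0 without replicate 1 of ZT8, and 2 without replicate 1 of ZT20 or replicate 2 or 3 of ZT8. With all libraries these were Tnfaip3, a feedback inhibitor of NF-kappa B (125, 138 and 151 at ZT20, against 32, 84.1 and 76.6 at ZT8), and Ticam1, an adaptor of TLR3 and TLR4 (286, 223 and 226 at ZT20, against 372, 338 and 393 at ZT8).

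The mast cell markers were higher at ZT20 by 6 of 7 log2 folds (median 0.80), where 50.4% of all genes were above 0. At the flanking times 1 of 7 was above 0, with a median of -0.22. Cma1, a mast cell chymase gene, was at 633, 468 and 463 at ZT20, against 297, 215 and 345 at ZT8, and Kit was at 51.4, 34.2 and 37.2 at ZT20, against 4.88, 27.1 and 28.6 at ZT8. The groups of both did not overlap, and the value of Kit in replicate 1 of ZT8 rests on 9 reads. The part of the mast cell markers in the other results was not tested on its own. The mean log2 levels of the B cell, T cell and mast cell markers were put in the model. Limma then called 6 genes, of which 4 were among the 7, Tef, Nr1d1, Nr1d2 and Dbp. Arntl, Nlrp3 and Snord13 then missed the threshold (limma adjusted p = 0.113, 0.082 and 0.14), and Cxcl13 passed it (0.00398). In that fit the MHC class I list had 0 members higher at an unadjusted p under 0.05, and a median of 0.275.

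The same comparison in macrophages of young mice, fitted on their own table, shares no library with the aged one. Limma called 16 of 12113 genes there (0.132%), 7 higher (0.0578%) and 9 lower (0.0743%) at ZT20. The count was 8 without replicate 1 of young ZT20 and 9 without replicate 3 of young ZT8. The 7 genes called in aged macrophages all had the same sign in young ones, where 60.4% of all genes did. Nr1d1 and Nr1d2 were called at both ages, with log2 folds of -5.18 and -1.93 in aged and -4.89 and -1.77 in young macrophages. Thra, which overlaps Nr1d1, was called lower in young macrophages, at a log2 fold of -1.08 (limma adjusted p = 0.000414). Dbp was at -2.98 ± 0.49 in aged and -1.39 ± 0.36 in young macrophages, Tef at -1.37 ± 0.18 and -0.44 ± 0.13, and Nlrp3 at 1.36 ± 0.25 and 0.77 ± 0.24 (SE). The 3 were not called in the young, with limma adjusted p-values of 0.164, 0.267 and 0.335. Median log2 folds in young macrophages were 0.28 for heat shock, 0.235 for ER folding and 0.01 for interferon-stimulated genes. They were 0.16 for MHC class I, -0.33 for MHC class II and -0.035 for ribosomal protein genes, and 0.00 over all genes.

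Arntl had a log2 fold of 1.31 ± 0.25 in aged and 0.03 ± 0.22 in young cells (SE, limma adjusted p = 0.98 in the young). Per2 and Cry1 were called higher at ZT20 in young macrophages and not in aged ones. Per2 was at 156, 197 and 294 at ZT20 against 185, 180 and 206 at ZT8 in aged macrophages, and at 485, 325 and 310 against 85.7, 88.7 and 27.3 in young ones. The log2 fold was 0.13 in aged and 2.60 ± 0.32 in young cells (SE, limma adjusted p = 2.09e-05 in the young). Cry1 had log2 folds of 0.70 and 2.31 in aged and young macrophages. Levels are not set across ages here, because the authors normalized the tables separately.

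The difference between ages was tested itself, with all 42 libraries brought to 1 scale. Limma called 0 of 12086 genes (0%), with 359 at an unadjusted p under 0.05 (2.97%), and edgeR called 0 and DESeq2 3. Per2 had the lowest p, with a log2 fold smaller by 2.47 ± 0.46 in aged macrophages (a difference of -2.47, limma adjusted p = 0.052), and was called in 13 of 26 settings, among them those without replicate 3 of aged ZT20 or without replicate 1 or replicate 2 of young ZT8. Cry1 differed by -1.60 ± 0.35 (adjusted p = 0.25), Tef by -0.92 ± 0.22 (0.493) and Arntl by 1.28 ± 0.32 (0.60). Limma called none of these with all libraries, and DESeq2 called Per2 and Cry1. For Nr1d1 the difference was -0.32 ± 1.08 (SE), an error wider than that of any other clock gene called in aged macrophages.

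**Figure D5:**
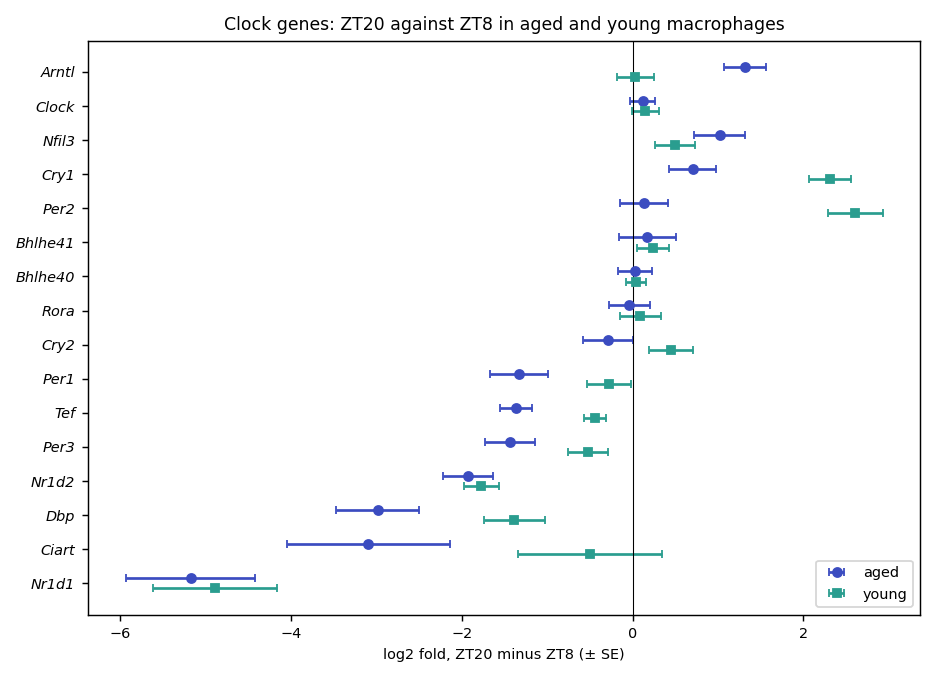
Log2 fold of ZT20 minus ZT8 (± SE) of 16 clock genes in aged macrophages (blue circles, upper of each pair) and young ones (green squares, lower). Nr1d1 and Nr1d2 are close at both ages, Per2 and Cry1 are near 0.13 and 0.70 in aged and 2.60 and 2.31 in young macrophages, and Arntl is at 1.31 in aged and 0.03 in young ones.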

How the data were processed

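Macrophage RNA of aged and young C57BL/6 mice was sequenced from the 3' end using QuantSeq libraries from Lexogen, per the labels' protocols. Per the submitters' processing notes, STAR and DESeq2 were used with build mm10. The sources used here give no counter, annotation or tool version. The authors deposited 1 table per age of a normalized signal, reads divided by a size factor per library. Dividing by the value of 1 read recovered whole numbers of reads in 100% of values (tolerance 0.001). The 2 tables were normalized separately.

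Each table held 47643 genes, of which 47224 had a symbol. The aged libraries held 4864402 to 15587030 reads and the young ones 7433159 to 13574542. The sources name no molecular identifiers, and reads without them are not independent molecules. No pair of replicates was alike within sampling noise.

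Limma 3.58.1 (R 4.3.3, trend) was fitted to log2(value + 1) of the 21 aged libraries with 7 group means, for genes with a mean of at least 10. The contrast was ZT20 minus ZT8, with Benjamini-Hochberg adjusted p under 0.05. This scale understates the fold of low genes. The young table was fitted likewise. For the difference between ages, reads of all 42 libraries were rescaled by the median of ratios and fitted with 14 group means. With 3 against 3 libraries an exact permutation test cannot go below p = 0.1, so none is given. Gene positions come from GENCODE M21 (GRCm38).

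Alternatives were edgeR 4.0.16 (quasi-likelihood) and DESeq2 1.42.0 on the recovered reads, other pseudocounts, filters, scalings and covariates, a replicate block, array weights and each library left out. A B cell covariate alone, and a fit without the second replicate of both times, were chosen after seeing the data. The scripts were tested on simulated data. The 49 gene lists, the clock genes and the comparison were chosen with earlier results of these data known. Named genes are all measured clock genes, the 15 rises and 15 falls of largest change or lowest p, up to 4 members of lowest p per list, and 10 genes for the difference between ages; genes named outside it were chosen after their values were seen. Some genes that the rule for named genes covers are not reported here.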

Additional observations from a re-analysis of the deposited data

How the results depend on the processing

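The count of 7 genes was 2 without the second replicate of both times, 11 at an adjusted p under 0.10, 13 with DESeq2 and 2 to 7 with 1 library left out. It was 6 to 10 under the other settings, 6 of them with edgeR. Of the 7, Tef was called in all 22 fits, Nr1d1 and Nr1d2 in 21, Dbp in 17, Nlrp3 in 12, Snord13 in 11 and Arntl in 10. A limma fit of the ZT20 and ZT8 libraries alone called 8 genes, 4 of them among the 7, without Arntl, Nlrp3 and Snord13. The labels do not say what replicate numbers share, so the numbers were not taken as pairs. Deviations of same-numbered libraries correlated at 0.00, 0.09 and 0.16, and those of differently numbered ones at -0.13 to 0.05. These correlations do not decide whether the numbers mark pairs. A fit with the replicate as a block called 6 genes at these times, all lower and 4 of them among the 7. It did not call Arntl, Nlrp3 or Snord13 (adjusted p = 0.0627, 0.0553 and 0.0627) and called Klf9 and Per3 (0.0318 and 0.0495). With the block the count was 1 at the flanking times, where array weights also gave 1, 14 in young macrophages and 1 for the difference between ages. The flanking count of 3 was 1 to 5 with 1 library left out. The young count of 16 was 42 with DESeq2, 37 with the ZT20 and ZT8 libraries alone and 8 to 14 with 1 library left out. The difference between ages gave 0 calls. It gave 6 without a filter, 3 with DESeq2 and 0 to 1 with 1 library left out. It gave 1 with a pseudocount of 5, a mean of at least 50, scaling to the total, to the upper quartile or by TMM, array weights, covariates or an adjusted p under 0.10. Signs changed in clock genes whose log2 fold was near 0. Per2 was -0.0010 with array weights and -0.12 to 0.34 with 1 library left out. Bhlhe40 was -0.015 with array weights, -0.023 with the marker covariates, -0.022 with the B cell covariate alone, -0.010 without both second replicates and -0.083 to 0.12 with 1 library left out. Bhlhe41 was -0.19 to 0.41 and Rora -0.21 to 0.11 with 1 library left out, and Rora was 0.13 without both second replicates. The causes were not tested. The median SE of a log2 fold over all genes was 0.248, which with 3 libraries per time limits what could be detected.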

Other observations

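Several lists showed few or no members past an unadjusted p of 0.05 between ZT20 and ZT8 in aged macrophages. Immediate early genes had 0 of 18, DNA replication genes 0 of 20, G2 and mitosis genes 0 of 20 and lysosome genes 0 of 23, and proteasome genes had 1 of 27, which was lower. Nuclear genes of the respiratory chain had 1 of 24, which was higher. Over all genes 5.87% passed that p, so 0 or 1 in lists of this size is near the background and is no result about them. Limma called none of these genes.

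Of 20 tested cytokine and chemokine genes, 12 had a log2 fold above 0, with 3 higher and 0 lower at that p, where all genes gave 3.57% and 2.3%. Besides Cxcl13 these were Cxcl2, a neutrophil chemokine gene, at 712, 845 and 760 at ZT20, against 414, 201 and 610 at ZT8 (log2 fold 1.05 ± 0.32, SE, limma adjusted p = 0.674), and Il27, an interleukin gene of low level, at 3.74, 22 and 13.1 at ZT20, against 1.63, 7.88 and 1.02 at ZT8. The groups of Cxcl2 did not overlap, and those of Il27 did. Adgre1, the F4/80 gene, and Gata6, the factor of resident peritoneal macrophages, had log2 folds of 0.52 and 0.66. Neither was called, and the groups of both overlapped. Other members of their lists went both ways. Of 14 macrophage lineage markers 10 were above 0 (median 0.11, lowest -0.42), and of 20 resident peritoneal markers 16 (median 0.15, lowest -0.18). Over all genes 50.4% were above 0.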
